A study of Mus musculus with 16 samples.

Results

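The genes described here encode the pyruvate dehydrogenase complex (PDC) and the enzymes that switch it off and on. They are Pdha1, Pdhb, Dlat, Dld, Pdhx, Pdk1, Pdk2, Pdk4, Pdp1 and Pdp2, 10 of the 21938 protein-coding genes that GENCODE release M21 places on chromosomes 1 to 19, X and Y of the mouse build GRCm38. They were taken by name, and for each one the peaks of open chromatin in the gene or within 5000 bp to each side were read from every deposited peak list. The lists came from ATAC-seq, in which a transposase inserts adapters into accessible DNA, on 16 libraries of mouse CD8+ T cells. There were 4 libraries each of effector cells (TE) and memory cells (TM) from wildtype (WT, genotype TPdh+/+) mice and from TPdh-/- mice.

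According to the study's methods, TPdh-/- mice were made by crossing mice with a floxed Pdha1 to Cd4-Cre transgenic mice, so that Pdha1 is removed once the Cd4 promoter has been active in the T lineage. The other genes described here are not targeted. Mice of both sexes were used at 8 to 12 weeks of age. For differentiation the methods name OT-I cells, T cells with a transgenic receptor for an ovalbumin peptide, activated for 3 days with that peptide and then kept for 4 days with interleukin at 10 ng/mL, IL-2 for TE and IL-15 for TM. Both states are thus culture models, and the labels of these libraries do not mention the receptor transgene. No label says whether the 4 libraries of a group came from separate mice, and p-values therefore measure the spread between libraries, which may be technical. The comparisons ask whether the chromatin at these genes was open to a different extent without PDC, and in memory against effector cells.

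PDC sits in the mitochondrial matrix and turns pyruvate into acetyl-CoA, linking glycolysis to the citric acid cycle. Pdha1 and Pdhb encode the alpha and beta subunits of the pyruvate dehydrogenase that decarboxylates pyruvate, Dlat the acetyltransferase core, Dld the dihydrolipoamide dehydrogenase that re-oxidizes the lipoyl groups, and Pdhx the protein that tethers that dehydrogenase to the core. Kinases (Pdk1, Pdk2 and Pdk4 among them) phosphorylate the alpha subunit and silence the complex, and the phosphatase catalytic subunits encoded by Pdp1 and Pdp2 reverse this. In T cells, activation shifts carbon use towards glycolysis, and memory cells are known for their reliance on mitochondrial oxidation.

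To show what lies at the starts that were open most often, differently between the TE groups, and almost never, upstream sequence is given for Pdhb, Pdhx, Dld, Pdk2 and Pdk4. Each run is on the minus strand of GRCm38.p6, 5′ to 3′, from RefSeq, and covers the bases before the gene start that lie in no annotated exon. Capitals mark exact matches, on either strand, to 4 motifs. The first is CCAAT, the CCAAT box, and the SP motif reads GGGCGG. The E-box reads CACGTG. The HIF motif reads ACGTG and also lies inside the E-box. No match to TGCGCATG (NRF1), CCGGAAG (ETS) or AAGGTCA (ESRRA) was found in the 9 promoters with a sequence. Pdp1 was not in the promoter table.
Pdhb: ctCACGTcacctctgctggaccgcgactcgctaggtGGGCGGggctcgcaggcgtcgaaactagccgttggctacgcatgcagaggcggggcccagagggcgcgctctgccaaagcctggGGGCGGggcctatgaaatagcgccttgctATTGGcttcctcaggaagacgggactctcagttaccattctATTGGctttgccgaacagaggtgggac
Pdhx: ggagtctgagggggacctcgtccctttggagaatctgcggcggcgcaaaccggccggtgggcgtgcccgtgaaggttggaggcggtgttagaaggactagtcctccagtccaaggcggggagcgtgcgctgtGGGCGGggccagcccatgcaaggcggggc
Dld: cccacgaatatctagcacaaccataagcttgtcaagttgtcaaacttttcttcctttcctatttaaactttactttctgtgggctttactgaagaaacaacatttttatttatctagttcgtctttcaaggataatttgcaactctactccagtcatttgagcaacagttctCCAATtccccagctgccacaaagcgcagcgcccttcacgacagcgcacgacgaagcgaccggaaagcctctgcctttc
Pdk2: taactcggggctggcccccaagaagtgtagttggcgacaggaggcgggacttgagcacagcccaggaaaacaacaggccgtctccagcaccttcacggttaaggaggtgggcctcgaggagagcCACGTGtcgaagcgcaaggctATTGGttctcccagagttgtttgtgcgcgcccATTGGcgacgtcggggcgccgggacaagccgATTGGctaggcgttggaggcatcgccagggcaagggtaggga
Pdk4: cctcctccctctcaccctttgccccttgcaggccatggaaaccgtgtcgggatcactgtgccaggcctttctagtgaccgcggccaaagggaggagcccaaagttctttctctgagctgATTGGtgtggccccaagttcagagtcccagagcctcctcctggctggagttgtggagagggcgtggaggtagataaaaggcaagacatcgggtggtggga
The runs lie at chr14:8173026-8173242, chr2:103073514-103073674, chr12:31351472-31351721, chr11:95041372-95041621 and chr6:5496310-5496528. Those of Pdhx, Dld and Pdk2 end at the RefSeq gene start, and those of Pdhb and Pdk4 stop 33 and 31 bases before it.

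Over the 300 bases from 250 before to 50 after the start, 17491 protein-coding genes had a sequence, with a median GC content of 56.3% and a median observed over expected CpG ratio of 0.577. The GC content was 62% for Pdha1 and Dlat, 61% for Pdhb, 67.3% for Pdhx, 66% for Pdk1, 64.7% for Pdk2 and 60.7% for Pdk4 and Pdp2. Dld was the exception among these 9 genes, with 47% GC, above 22.4% of all promoters, and a CpG ratio of 1.14, above 98.4% of them. CCAAT occurred 3 times at Pdhb and at Pdk2, 2 times at Dld and Pdp2, and 1 time at Pdhx and Pdk4, and 39.2% of all promoters held it. GGGCGG occurred 2 times at Pdhb, Pdhx and Pdk1 and 1 time at Dlat and Pdp2, against 46.3% of all promoters with a match. The E-box was found at Pdk2 and Pdp2 (7.91% of all promoters), and ACGTG at Pdhb, Pdk2 and Pdp2 (20.7%). A high GC content did not go with an open start in every case, since no peak of any library overlapped the 300 bases at Pdk2 or Pdk4.

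The libraries differed widely in depth. They held between 2290 and 86637 peaks, and the background coverage, the average fragment count per base as solved from the peak statistics, ran from 0.173 to 1.55. It did not overlap between genotypes within either cell type. It was 0.636 to 1.55 in WT TE against 0.173 to 0.445 in TPdh-/- TE, and 0.354 to 0.572 in WT TM against 0.186 to 0.261 in TPdh-/- TM. The weakest peak of a library rested on 5 to 9 fragments in WT TE, 3 to 4 in TPdh-/- TE, 4 to 5 in WT TM and 3 in TPdh-/- TM. Within a cell type, genotype and depth therefore cannot be told apart from the full lists. Of the 5 CD8+ T cell markers (Cd8a, Cd8b1, Cd3d, Cd3e and Cd3g), all had a promoter peak in at least 2 libraries, together in 21 of 80 gene and library pairs (between 0 and 4 per library), led by Cd8b1 with 8 libraries. The 8 markers of other cells had one in 8 of 128 pairs, and Cd4, Cd79a, Lyz2 and Ncr1 had none. By group, T cell markers had 4, 4, 6 and 7 of 20 pairs and the other markers 0, 3, 2 and 3 of 32, in the order WT TE, TPdh-/- TE, then WT TM, TPdh-/- TM. Over all protein-coding genes the mean share with a promoter peak was 18.7%, 18.8%, 15.3% and 28.3% in the same order. Anywhere in the window, T cell markers had a peak in 4 (Cd3g) to 11 (Cd8b1) libraries. Markers of other cells had one in 2 (Lyz2) to 11 (Itgam), so the lists overlapped on that measure. The part of other cells in the results below was not tested.

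Open chromatin at the PDC genes was concentrated at their starts. The 10 windows, 295535 bases in all, held 133 peaks over the 16 libraries, and 80 of them had their summit within 1000 bp of an annotated start of the gene (a promoter peak). Of those, 76 lay within 1000 bp of the outermost gene start, with a median position of −32 bp, and 4 lay within 1000 bp of an annotated start further inside Pdhb, Dlat, Pdk1 or Pdk2. The density was 116 peaks per Mb and library within 1000 bp of the members' own starts and 13.1 per Mb in the rest of the windows, against 14.8 per Mb over the whole genome. The other 53 peaks comprised 24 in introns, 4 in exons, 9 in the flank before the gene and 16 in the flank after it. They merged into 49 sites, of which 46 were found in 1 library each.

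**Figure D1:**
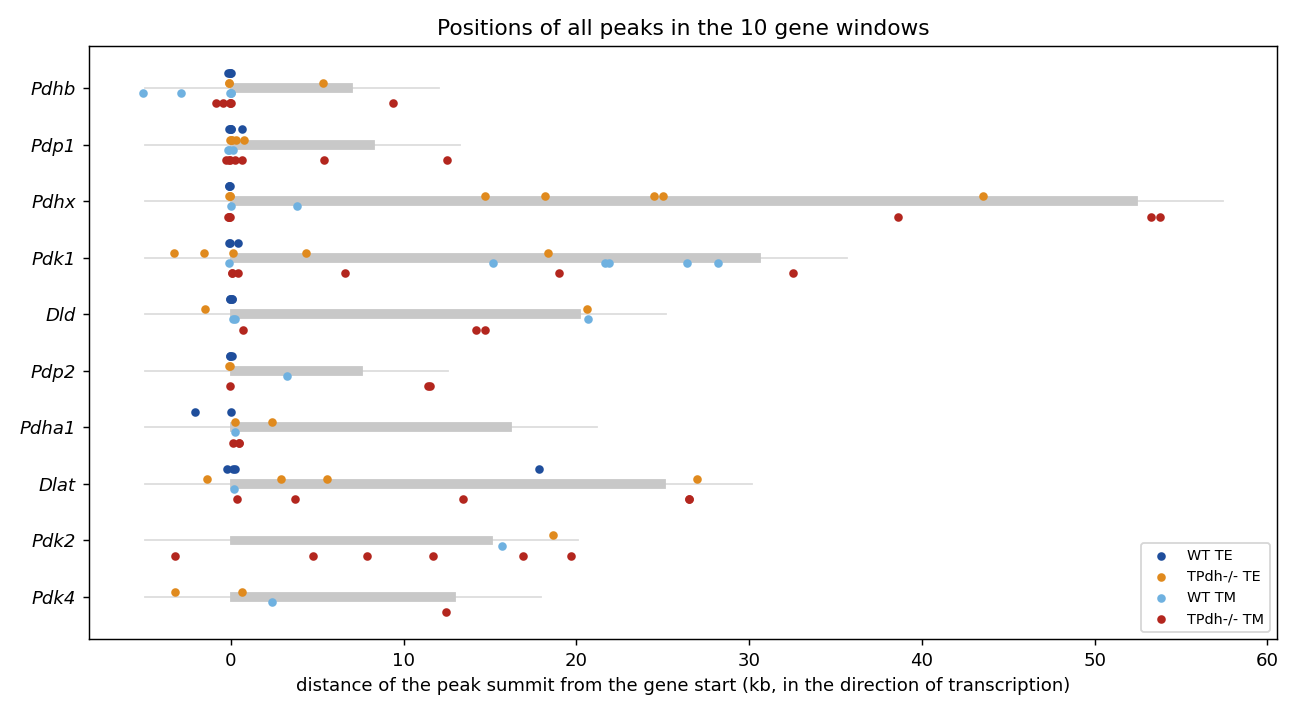
Distance in kb of the summit of every peak from the start of its gene, 1 line per gene with the gene body as a grey bar and the 5 kb flanks as a thin line, coloured by group. Peaks of all 4 groups pile up at the start of Pdhb, Pdp1 and Pdhx, while the points elsewhere are scattered and mostly from 1 library each.

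The starts of Pdhb, Pdp1 and Pdhx were open in most libraries, and those of Pdk2 and Pdk4 in almost none. A promoter peak was found at Pdhb in 14 of 16 libraries, Pdp1 in 13, Pdhx in 11, Pdk1 in 9, Dld in 7, Pdha1 and Pdp2 in 6, Dlat in 5, and Pdk2 and Pdk4 in 1. The mean was 7.30 libraries for these genes and 3.24 for all protein-coding genes. As many libraries as Pdhb were reached by 0.438% of all protein-coding genes, as many as Pdp1 by 1.17%, as many as Pdhx by 4.43% and as many as Pdk1 by 10.1%. For Dlat the share was 29.9%, and for the 2 genes at the bottom 73.5%. Neighbours in this order did not differ beyond what the libraries allow, the lowest unadjusted p of an exact two-sided McNemar test over the 16 libraries being 0.219 for Dlat and Pdk2. Between the ends, 13 libraries had a peak at Pdhb and not at Pdk2 and none the reverse (exact McNemar p = 0.000244), with the same numbers for Pdk4. Of all 45 pairs compared, 10 had an adjusted p under 0.05, and each of the 10 involved Pdhb, Pdk2 or Pdk4. These libraries share depth differences across all genes, and a start without a listed peak is not shown to be closed.

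Because the −log10 q-value of a peak depends on depth, each promoter peak was also ranked by it within its own list. Such a rank still depends on the make-up of the list, and the lists held 2290 to 86637 peaks. At Pdp2 the median promoter peak stood above 90.1% of the peaks of its library, at Pdhx above 89.4%, at Pdp1 above 86.7% and at Pdhb above 76.9%. Pdk1, Pdha1 and Dld were near the middle of their lists, at 58.4%, 57.8% and 52.8%. The medians rest on different libraries for each gene, and in the 6 libraries with a peak at both, Pdhx ranked above Pdp2 in 4. Dlat stood lower, at 29.0%, and the single peaks of Pdk2 and Pdk4 at 48.0% and 0.979%. The −log10 q-values themselves ran from 3.43 to 9.90 at Pdp2, 2.17 to 13.1 at Pdhx, 1.34 to 12.9 at Pdp1 and 2.04 to 9.53 at Pdhb. At Dld they ran from 2.61 to 5.56, at Pdha1 from 1.38 to 5.47 and at Dlat from 1.40 to 3.23. A gene open in few libraries was thus not always weak where it was open, as Pdp2 had promoter peaks in 6 libraries.

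**Figure D2:**
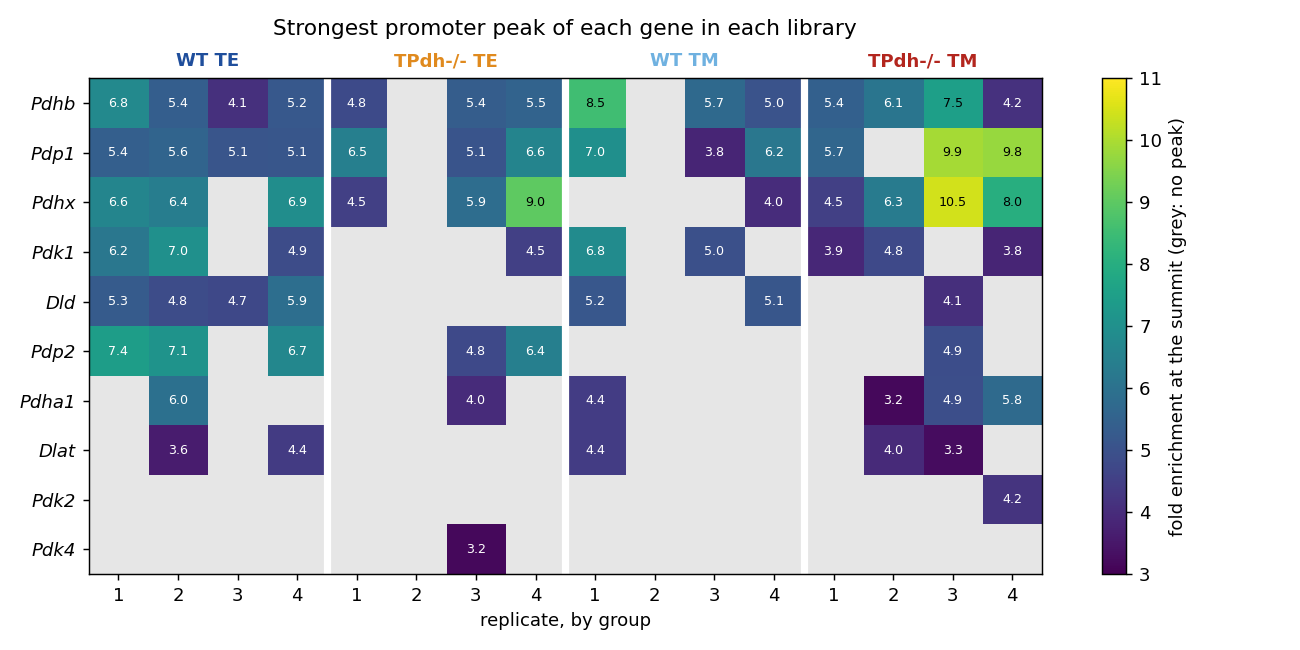
Fold enrichment at the summit of the strongest promoter peak, for each gene (vertical, most often open at the top) in each library (horizontal, by group), with grey where the list held no promoter peak. Pdhb and Pdp1 are filled in 14 and 13 of 16 libraries, Pdk2 and Pdk4 in 1, and replicate 2 of TPdh-/- TE and of WT TM is grey throughout.

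Among the subunits of the pyruvate dehydrogenase itself, the beta gene was open more often than the alpha gene. Pdha1 (ENSMUSG00000031299.10, chrX:160122209-160138413, minus strand), the gene deleted in TPdh-/- T cells, had a promoter peak in 6 libraries. They were replicate 2 of WT TE (fold enrichment, the summit pileup over the local background with 1 added to both, of 5.96), replicate 3 of TPdh-/- TE (3.97), replicate 1 of WT TM (4.43) and replicates 2, 3 and 4 of TPdh-/- TM (3.17, 4.93 and 5.78). Both genotypes were thus among the libraries with an open Pdha1 start, and each of the 4 groups had libraries with and without it. A promoter peak lies outside a deleted internal exon, so it does not check the genotype, which could not be checked from peak lists.

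Pdhb (ENSMUSG00000021748.9, chr14:8165996-8173025, minus strand) had a promoter peak in 4 of 4 WT TE libraries, with fold enrichments of 6.77, 5.38, 4.12 and 5.20 in replicates 1 to 4. In TPdh-/- TE it was 4.79, 5.36 and 5.54 in replicates 1, 3 and 4, the first of these with its summit 5298 bp inside the gene, 631 bp from an inner annotated start. In WT TM it was 8.54, 5.73 and 5.05 in replicates 1, 3 and 4, and in TPdh-/- TM 5.44, 6.12, 7.52 and 4.15 in replicates 1 to 4. The ranges of the 4 groups overlapped in fold enrichment. As multiples of the background coverage the TE summits were at 7.04 to 15.9 in WT and 14.3 to 23.2 in TPdh-/-. In TM they were at 14 to 33.8 in WT and 21.5 to 47.8 in TPdh-/-. This scale divides by the coverage, which was 0.636 to 1.55 in WT TE and 0.186 to 0.261 in TPdh-/- TM. The part of coverage was not tested, and no share of all genes is given for this scale. Both libraries without a Pdhb promoter peak were the same 2 that had none at any of the 10 genes. The summits within 1000 bp of the gene start lay at a median of −69.5 bp, inside the sequence shown above, where the copies of CCAAT and GGGCGG stand. The alpha and beta genes differed in 8 libraries, all with a peak at Pdhb only (exact McNemar p = 0.00781, adjusted p = 0.0352). Pdha1 lies on the X chromosome, mice of both sexes were used, and the library titles do not give the sex. The part of sex in this difference was not tested.

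Dlat (ENSMUSG00000000168.9, chr9:50634633-50659780, minus strand), the core acetyltransferase, had a promoter peak in 5 libraries. Its strongest promoter peaks reached 3.60 and 4.38 in replicates 2 and 4 of WT TE, 4.43 in replicate 1 of WT TM, and 3.96 and 3.25 in replicates 2 and 3 of TPdh-/- TM. None was found in TPdh-/- TE, and the peak of TPdh-/- TM replicate 2 lay 13408 bp into the gene, 183 bp from an inner start. The highest fold enrichment in any of the 10 windows was also at Dlat, but downstream of it. It was 12.2 (the −log10 q-value was 17) in TPdh-/- TM replicate 4, in the 3′ flank, in a site at chr9:50632711-50633286 that was also open in TPdh-/- TM replicate 3 (4.06) and in TPdh-/- TE replicate 4 (4.84).

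Dld (ENSMUSG00000020664.10, chr12:31331277-31351453, minus strand) was the only gene of the 10 whose promoter peaks separated 2 groups in any of the 4 comparisons. The WT TE libraries had fold enrichments of 5.28, 4.84, 4.73 and 5.88 in replicates 1 to 4, all with summits between 55 bp upstream and 49 bp downstream of the start, and the TPdh-/- TE libraries had no promoter peak. In WT TM the values were 5.17 and 5.13 in replicates 1 and 4, and in TPdh-/- TM 4.06 in replicate 3, 681 bp into the gene. By two-sided Fisher's exact test, 4 of 4 against 0 of 4 gives p = 0.029, the smallest this design allows, and an adjusted p of 1 over all genes. At the promoter, 61 genes (0.278%) separated these groups, 46 of them open in WT TE and 15 in TPdh-/- TE.

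Depth differed alongside Dld. The WT TE summits held 11, 7, 11 and 14 fragments, 9.38 ± 1.37 times the background coverage (SD, n = 4). At that ratio the TPdh-/- TE libraries would have held 3.93, 1.62, 2.43 and 4.17 fragments, while the weakest peak of each list rested on 4, 3, 3 and 4. That is under the weakest peak in 3 of the 4 libraries and over it in replicate 4, which had no Dld promoter peak either. The same calculation did not always follow the calls in the TM libraries. Dld had peaks in WT TM replicates 1 and 4 at 3.33 and 3.41 fragments (weakest peak 4) and in TPdh-/- TM replicate 3 at 2.16 (weakest peak 3), while Pdp2 had none in any WT TM library at 5.55 to 8.96 (weakest peak 4 to 5). Over the 8 genes with a promoter peak in WT TE and the 12 other libraries, a promoter peak was listed in 32 of 58 pairs at or over the weakest peak and in 15 of 38 under it. The part of depth in the Dld difference was not tested beyond these values and the alternatives that follow. With the 2290 peaks of highest −log10 q-value in each list the difference fell from 4 to 2 libraries, and with peaks of a −log10 q-value of at least 5 to 1 library. Over both cell types, the mean log2 fold enrichment of the Dld promoter (0 where no peak) differed by −1.52 between TPdh-/- and WT (exact permutation p = 0.00612, adjusted p = 1), where 1.24% of all genes had an unadjusted p under 0.05. With log2 background coverage as a covariate it was −1.09 (permutation p = 0.218).

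**Figure D3:**
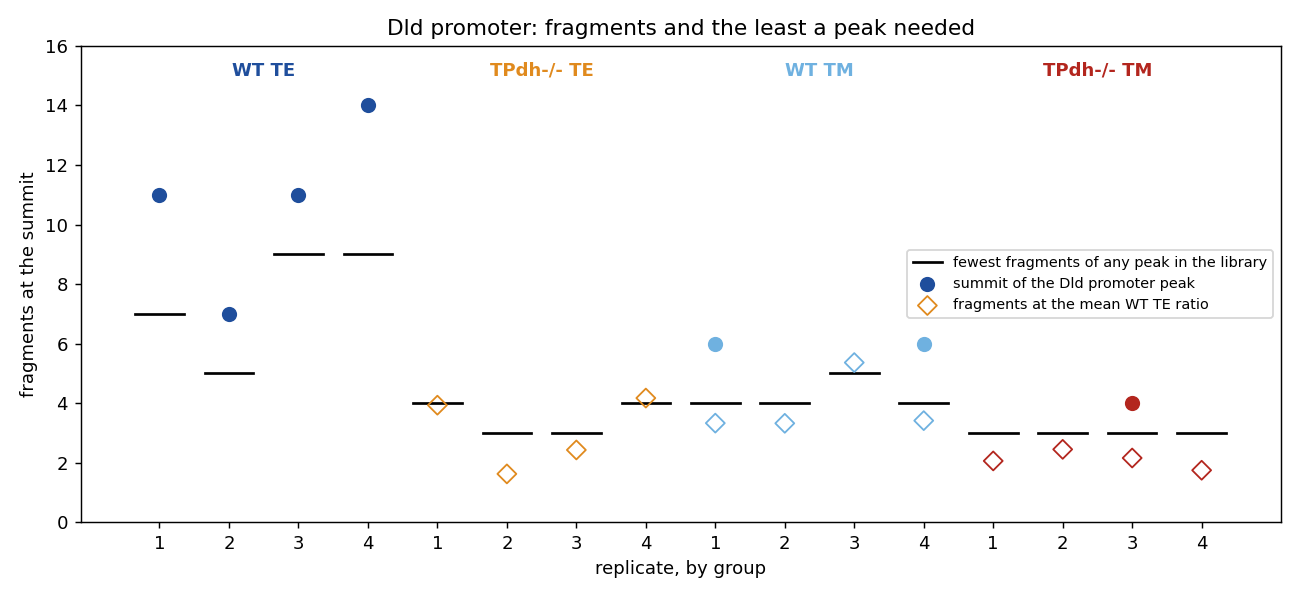
Fragments at the summit of the Dld promoter peak (filled circles), the fragments expected at the mean WT TE ratio of 9.38 times the background coverage (open diamonds) and the fewest fragments of any peak in the list (black bars), for each library by group. In 3 of the 4 TPdh-/- TE libraries the diamond lies under the bar, as it does in 3 TM libraries that had a peak.

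Pdhx (ENSMUSG00000010914.10, chr2:103021075-103073513, minus strand) shares its start region with Apip, a methionine salvage gene. All 11 of its promoter summits lay 24 to 146 bp upstream and within 1000 bp of an Apip start, so the 2 genes cannot be told apart there. Fold enrichments were 6.64, 6.39 and 6.91 in replicates 1, 2 and 4 of WT TE and 4.53, 5.87 and 9.03 in replicates 1, 3 and 4 of TPdh-/- TE. In TM they were 4.01 in replicate 4 of WT and 4.52, 6.34, 10.5 and 8.0 in replicates 1 to 4 of TPdh-/-. All 4 TPdh-/- TM libraries were above the single WT TM library with a peak, and 4 of 4 against 1 of 4 does not separate the groups.

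Of the kinase genes, Pdk1 had an open start in 9 libraries and Pdk2 and Pdk4 in 1 each. Pdk1 (ENSMUSG00000006494.11, chr2:71873224-71903858, plus strand), whose product is induced under low oxygen, had promoter fold enrichments of 6.17, 7.01 and 4.86 in replicates 1, 2 and 4 of WT TE and 4.51 in replicate 4 of TPdh-/- TE. In TM the values were 6.85 and 4.96 in replicates 1 and 3 of WT, the second 959 bp from a start inside the gene, and 3.91, 4.76 and 3.82 in replicates 1, 2 and 4 of TPdh-/-. Both genotypes had libraries without a peak. Among the libraries with one, the WT fold enrichments (4.86 to 7.01) lay above those of TPdh-/- (3.82 to 4.76). Fold enrichment is not scaled between libraries, and no share of all genes is given for this split. As multiples of the background coverage, the summits overlapped between genotypes, at 8.37 to 20.4 in WT TE and 12.2 to 25.3 in WT TM against 13.5 in the TPdh-/- TE library and 18.2 to 21.5 in TPdh-/- TM. With libraries without a peak at 0, the mean log2 fold enrichment of the promoter differed by −0.56 between TPdh-/- and WT over both cell types (exact permutation p = 0.333, adjusted p = 1). Its window also held 11 peaks away from any start, the most of the 10 genes.

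Pdk2 (ENSMUSG00000038967.13, chr11:95026258-95041354, minus strand), a kinase expressed in many tissues, had no peak at its outermost start in any library, even though that start is rich in GC and holds 3 copies of CCAAT. Its only promoter peak, of 4.21 in TPdh-/- TM replicate 4, lay 11667 bp into the gene, 263 bp from an inner start. The other 7 peaks of its window had fold enrichments between 2.98 and 5.34 and lay in introns or flanks. Pdk4 (ENSMUSG00000019577.6, chr6:5483351-5496309, minus strand), the kinase known for its induction on fasting, had 1 promoter peak, of 3.18 in TPdh-/- TE replicate 3, and 3 further peaks in 3 libraries. None of the WT TE lists held any peak in the Pdk2 or Pdk4 windows.

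The phosphatase gene Pdp1 (ENSMUSG00000049225.14, chr4:11958184-11966452, minus strand) was open nearly as often as Pdhb. Its strongest promoter peaks had fold enrichments of 5.42, 5.56, 5.12 and 5.15 in replicates 1 to 4 of WT TE, and 6.47, 5.07 and 6.61 in replicates 1, 3 and 4 of TPdh-/- TE. In WT TM they were 6.97, 3.82 and 6.16 in replicates 1, 3 and 4, and in TPdh-/- TM 5.65, 9.92 and 9.76 in replicates 1, 3 and 4. The lowest and the highest fold enrichment were both in TM. On this scale the genotypes overlapped within each cell type, while the WT TE values lay below those of TPdh-/- TM. As multiples of the background coverage the summits were at 10.6 to 15.7 in WT TE and 20.2 to 23.2 in TPdh-/- TE. In TM they were at 8.74 to 31.0 in WT and 27.3 to 85.9 in TPdh-/-. This scale divides by the coverage, which was 0.636 to 1.55 in WT TE and 0.173 to 0.445 in TPdh-/- TE. The part of coverage was not tested, and no share of all genes is given for either scale. All 18 Pdp1 promoter peaks also lay within 1000 bp of a start of 1700123M08Rik, and 5 libraries had 2 of them. The 5 protein-coding genes most like Pdp1 in log2 fold enrichment over the 16 libraries were Gbf1 (Pearson r = 0.936), Tom1 (0.906), Fkbp3 (0.905), Polr3g (0.902) and Mblac2 (0.892), each held by 14 libraries, and libraries without a peak count as 0 in these values.

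Pdp2 (ENSMUSG00000048371.8, chr8:104591451-104599026, plus strand), the second phosphatase, had an open start in 5 TE libraries and 1 TM library. Promoter fold enrichments were 7.44, 7.12 and 6.69 in replicates 1, 2 and 4 of WT TE, 4.77 and 6.44 in replicates 3 and 4 of TPdh-/- TE, and 4.88 in replicate 3 of TPdh-/- TM, with none in WT TM. The mean log2 fold enrichment of the promoter differed by −1.39 between TM and TE over both genotypes (exact permutation p = 0.0510, adjusted p = 1). A site 11390 to 11505 bp after the start, at chr8:104602709-104602983, was open in replicates 2 and 3 of TPdh-/- TM (4.74 and 4.88).

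Counted together, the 10 genes were open at their starts most often in WT TE and TPdh-/- TM, with a wide spread between libraries. The share of the 10 genes with a peak anywhere in the window was 60% ± 21.6 in WT TE and 62.5% ± 22.2 in TPdh-/- TE, and 45% ± 37.0 in WT TM and 72.5% ± 17.1 in TPdh-/- TM (SD, n = 4 each). With equal-sized lists of 2290 peaks it was 35% in WT TE, 5% in TPdh-/- TE, 5% in WT TM and 12.5% in TPdh-/- TM. Over all protein-coding genes and with the full lists it was 27.7% ± 13.2, 53.2% ± 12.4, 41.1% ± 17.3 and 63.9% ± 2.61. The share with a promoter peak was 60% ± 21.6, 35% ± 26.5, 32.5% ± 25.0 and 55% ± 12.9 for the 10 genes, against 18.7% ± 7.33, 18.8% ± 9.99, 15.3% ± 10.7 and 28.3% ± 3.95 for all genes. In WT TE every peak-bearing member had its peak at the start, with 6, 8, 3 and 7 genes in replicates 1 to 4 on both measures. Outside the starts the WT TE windows held 1.98 peaks per Mb and library and the TPdh-/- TE windows 17.8, beside 3.25 and 18.7 genome-wide. WT TM replicate 2 stood apart with no peak in any of the 10 windows, although 33.2% of all genes were held there.

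**Figure D4:**
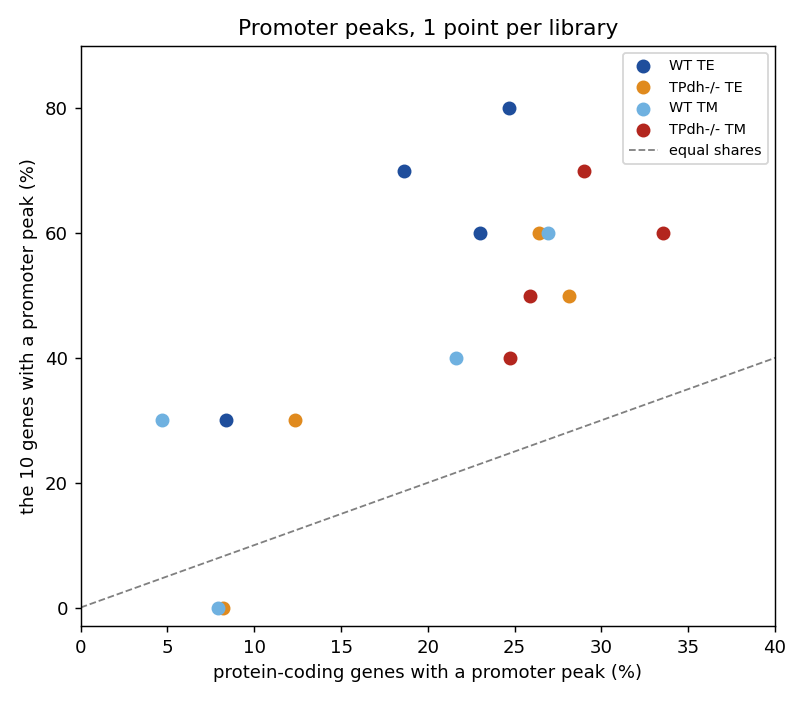
Percentage of the 10 genes with a promoter peak against the percentage of all protein-coding genes with one, 1 point per library, coloured by group, with a dashed line where both are equal. A total of 14 libraries lie above the line, and WT TM replicate 2 and TPdh-/- TE replicate 2 lie at 0%.

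No gene of the 10 was separated between any 2 groups on the whole window, that is held by 4 of 4 libraries of one group and 0 of 4 of the other (two-sided Fisher's exact test, p = 0.029). Among all genes 1.15% were separated between TPdh-/- TM and WT TM, 3.18% between TPdh-/- TE and WT TE, 1.21% between WT TM and WT TE, and 0.479% between TPdh-/- TM and TPdh-/- TE, with no adjusted p under 0.05 in any. At the promoter none of the 10 was separated between TPdh-/- TM and WT TM (0.561% of all genes), WT TM and WT TE (0.278%), or TPdh-/- TM and TPdh-/- TE (0.415%), and Dld was the 1 gene between TPdh-/- TE and WT TE. In direction, 7 of the 10 genes had promoter peaks in more TPdh-/- TM than WT TM libraries, 1 in fewer and 2 in as many, beside 42.8%, 10.9% and 46.3% of all protein-coding genes. In TE, 1 was open in more TPdh-/- libraries, 6 in fewer and 3 in as many, beside 24.5%, 20.6% and 54.9% of all genes. The comparisons share libraries, so these counts are not independent of each other.

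Over both cell types, none of the 10 genes passed the test for a genotype difference in the presence or the strength of a peak, an exact permutation test within cell type, adjusted over all genes (Benjamini-Hochberg). At an adjusted p under 0.05, 0% of the 21938 genes passed for either measure, while 1823 and 3139 genes had an unadjusted p under 0.05, none of them a member. The smallest p the arrangements can give is 0.000408, which needs 180 genes at that value to pass. The strongest difference was at Pdhx, whose mean log2 fold enrichment in the window was 2.65 in TPdh-/- and 1.57 in WT (difference 1.08, exact permutation p = 0.0661, adjusted p = 0.381). The member median was 0.26, with 7 genes higher and 3 lower, beside 0.53 over all genes held anywhere.

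Between TM and TE, 0% of all genes passed for presence or strength, with 505 and 1570 genes at an unadjusted p under 0.05 and again no member. The largest member difference in strength was −0.85 at Pdp2 (exact permutation p = 0.167, adjusted p = 0.831), followed by 0.68 at Pdk2 (p = 0.20 in the same exact test). The difference between the genotype effect in TM and in TE was tested on the residuals of an additive model, and no gene passed, with 1935 genes and no member at an unadjusted p under 0.05. Its member values ranged from −0.49 at Pdk1 to 1.49 at Pdp2, positive for 8 of the 10 genes. Their median was 1.05, beside −0.050 over all genes held anywhere.

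Other genes of pyruvate and lipoate metabolism were read in the same way, and over 16 of them the mean was 5.19 libraries with a promoter peak. Mpc2, a subunit of the mitochondrial pyruvate carrier, had a promoter peak in 15 libraries with fold enrichments of 3.84 to 9.59, and its partner Mpc1 in 6. Of the sister complexes, Bckdha of the branched-chain ketoacid dehydrogenase had a promoter peak in 11 libraries (3.75 to 7.03), Ogdh of the oxoglutarate dehydrogenase in 9 (3.28 to 5.92), Bckdhb in 8 (4.30 to 8.29) and Dbt in 5 (3.37 to 7.46). Pcx, the pyruvate carboxylase, had one in 8 (3.96 to 7.43). Pdk3, the remaining kinase, had one in 4 libraries, and Pdpr, the regulatory subunit of the phosphatase, and Pdha2, the testis copy of the alpha subunit, in none. None of the 16 passed the adjusted tests for genotype or cell type in presence or strength, where 0% of all genes did. The lowest unadjusted p was 0.0184 for the strength of Pdpr between TM and TE (exact permutation, adjusted p = 0.581).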

How the data were processed

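Peak lists of 16 ATAC-seq libraries were analysed as the authors deposited them. Per the study's methods and the submitters' processing notes, read pairs were trimmed with Trimmomatic, aligned to GRCm38 with BWA 0.7.17 and freed of ambiguous and blacklisted alignments, and peaks were called with MACS2 2.2.7.1 on paired fragments. Peak names in a list carry 1 library each, which shows no pooling. Read shifting for the transposase cut, duplicate removal and the q-value limit are not given in the sources used here. Every peak carries a score as the authors deposited it, which was not used. The deposited fold enrichment is a ratio of summit pileup to local background, and the deposited −log10 p-value and −log10 q-value (lowest 1.30) are those of the summit. None is scaled between libraries, so a shallower library can list a site that rests on fewer fragments.

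Genes and starts came from GENCODE M21. A gene counted as held where any peak shared at least 1 bp with it or its 5000 bp flanks, and promoter peaks summited within 1000 bp of an annotated start. Strength was the log2 fold enrichment of the strongest peak, or 0. Pileup and background were solved from fold enrichment and p-value for 97.2% to 99.9% of the peaks per library and 132 of the 133 peaks described, and the lowest background stood in for depth. Between 2 groups, each gene was tested with a two-sided Fisher's exact test, and over all libraries by exact permutation within strata (4900 arrangements), with Benjamini-Hochberg adjustment over all 21938 genes. The covariate test drew 9999 permutations. Python 3.11.15, numpy 2.4.6, scipy 1.17.1 and pandas 2.3.3 were used, and the tests were tried on simulated data. Values are given for all 10 members and for pathway genes held by at least 12 of the libraries or past a test, and a few others were named after their values were seen. The members, lists and motifs were chosen with earlier results of these data known. Alternatives were equal-sized lists, a stricter q-value, other windows and overlaps, another measure of strength, the coverage covariate, the replicate block and leaving out each library. Those on the Dld promoter were added after seeing the data. One further marker gene is not reported here.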

Additional observations from a re-analysis of the deposited data

Results flagged for a closer look

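One value stood apart from the other replicates of its group. The background coverage of WT TM replicate 3 was 0.572, and that of the other 3 WT TM libraries lay between 0.354 and 0.364. It was past the 95% limit of Dixon's test for 4 values. A total of 22 sets of 4 values were looked at and 1 was past the limit, where chance alone marks about 1 in 20. That library had a promoter peak at 3 of the 10 genes, Pdhb, Pdk1 and Pdp1.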

How the results depend on the processing

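No member passed an adjusted test for genotype or cell type under any alternative run, and the share of members held moved with the length of the lists. It was 60% and 62.5% in WT and TPdh-/- TE and 45% and 72.5% in WT and TPdh-/- TM, and became 35%, 5%, 5% and 12.5% with equal-sized lists of 2290 peaks. With a −log10 q-value of at least 5 it was 30% and 10% in WT and TPdh-/- TE and 12.5% and 25% in WT and TPdh-/- TM. With promoter peaks only it was 60%, 35%, 32.5% and 55% in the same order, and without flanks 52.5% in TPdh-/- TM. Leaving out each library gave 53.3% to 70%, 56.7% to 73.3%, 30% to 60% and 66.7% to 80% in the 4 groups. One member, Dld, was separated between TPdh-/- TE and WT TE with promoter peaks only and without flanks (1 gene each), and 0 otherwise. Its promoter strength difference over both cell types lay between −1.78 and −1.32 without each library in turn.

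Of 480 alternative differences in log2 fold enrichment of single genes, 57 had the opposite sign of the value first given, none with an unadjusted p under 0.110, and the cause was not tested. With coverage as a covariate they were for genotype Pdhb 1.21, Dld 0.62, Pdk1 −0.42, Pdk4 −0.091, Pdp2 0.51 and for cell type Pdha1 −0.10, Dld 0.49, Pdhx 0.17, Pdk4 −0.075. With −log10 q-value as strength it was for genotype Pdk1 −0.094, with equal-sized lists for genotype Pdk1 −0.68 and for cell type Pdhb −0.15, Pdp1 −0.10, and with a −log10 q-value of at least 5 for genotype Pdk1 −1.03 and for cell type Dld 0.40. With promoter peaks only they were for genotype Dlat −0.30, Pdk1 −0.56, Pdp1 −0.017 and for cell type Pdk1 0.17, Pdk4 −0.21, Pdp1 −0.12, and without flanks for genotype Pdk1 −0.14 and for cell type Pdhb −0.18, Dlat −0.25, Dld 0.064, Pdp1 −0.36. Leaving out each library gave, for genotype, Pdhb −0.38 to 0.25, Pdk1 −0.26 to 0.32, Pdp1 −0.12 to 0.51, Pdp2 −0.49 to 0.13, and for cell type Dlat −0.26 to 0.34, Pdha1 −0.018 to 0.57, Pdhb −0.14 to 0.48, Pdk4 −0.056 to 0.51, Pdp1 −0.23 to 0.40.

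No label says whether the replicate numbers of the titles pair libraries across groups. Deviations of same-numbered libraries correlated between −0.0331 and 0.0811 over 17208 genes, with 0 of 16 pairs over 0.1 and 5 best with their own number. The replicate block left the count of members called at 0 (lowest p 0.0703, Pdhx), and for presence in 2 groups the McNemar test cannot go below 0.125.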
